A study of Mus musculus with 8 samples.

Results

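The Nr4a orphan nuclear receptors are the 3 genes Nr4a1 (also called Nur77), Nr4a2 (Nurr1) and Nr4a3 (Nor1), taken by symbol from the 17983 genes of the deposited tables, and all 3 were measured and tested. They were followed in messenger RNA sequencing of 8 brain samples of male db/db mice, which lack a working leptin receptor and become obese and diabetic. A ketogenic diet, rich in fat with hardly any carbohydrate, was fed to the mice behind 4 libraries, and the control group of 4 libraries received a normal diet. Per the series' design text feeding began at 9 weeks, ended when mice were 6 months old, and brains were taken whole. Every group carried the db/db genotype, so no mouse without the leptin receptor defect is among these groups. The labels do not say whether libraries came from separate animals, so the p-values measure the spread between these libraries.

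Nuclear receptors are transcription factors that bind DNA through paired zinc fingers, and most are switched on by a ligand. The Nr4a receptors differ in that no natural ligand is established and in being controlled chiefly through how much of the gene is transcribed. In neurons they are immediate early genes: synaptic activity, calcium and cyclic AMP raise their transcription within minutes through the factor CREB, without new protein synthesis. They bind the NBRE element as monomers, and Nr4a1 and Nr4a2 also pair with retinoid X receptors. In rodents they are known for roles in memory storage in the hippocampus, and Nr4a2 for the making and upkeep of midbrain dopamine neurons.

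Neuron markers were abundant, with Snap25 at 1090 to 1438 FPKM (fragments scaled to gene length and library size) across the 8 libraries. The cerebellar granule cell marker Gabra6 had 0 to 5 counts and the Purkinje cell marker Pcp2 had 0 to 17. Of the other cerebellar markers, Cbln3 had 13 to 56 counts, Barhl2 17 to 67, Car8 210 to 356 and Cbln1 427 to 1313. Thus 2 of 6 were at or near 0 and Cbln3 and Barhl2 were also low, although the label is brain. Total counts were 34450860 to 40233361 per library, and the members had 1788 to 5945 counts each. The counting error was 2.36% for the lowest of these, below the spread between libraries of 6.57% to 11.4%. On the first principal component, which held 22.9% of the variance, ketogenic replicate 3 lay apart at 34.4, and the values without it are given below. In a bulk sample, fewer cells of a type and less RNA per cell cannot be told apart.

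In GENCODE M21 on GRCm38, Nr4a1 lies on the plus strand at chr15:101254269-101274795, Nr4a2 on the minus strand at chr2:57106830-57124003 and Nr4a3 on the plus strand at chr4:48045153-48086447. All 3 are protein coding, with 4, 6 and 4 annotated transcripts, and no other annotated gene overlaps them. Counts cover whole genes, so no exon, UTR or transcript is singled out. Stretches upstream of their transcription starts are shown as a description of sequence, and any link to the change in level was not tested. They come from RefSeq on GRCm38.p6, read 5' to 3' on each gene's own strand, at chr15:101266596-101266845, chr2:57124004-57124253 and chr4:48045055-48045152. That of Nr4a1 lies inside the GENCODE span of the gene, outside its exons, and that of Nr4a3 holds the far 98 bases of its window, up to its first GENCODE exon. Capitals mark TGACG or its reverse complement CGTCA, the half-site of the cyclic AMP response element to which CREB binds:
Nr4a1: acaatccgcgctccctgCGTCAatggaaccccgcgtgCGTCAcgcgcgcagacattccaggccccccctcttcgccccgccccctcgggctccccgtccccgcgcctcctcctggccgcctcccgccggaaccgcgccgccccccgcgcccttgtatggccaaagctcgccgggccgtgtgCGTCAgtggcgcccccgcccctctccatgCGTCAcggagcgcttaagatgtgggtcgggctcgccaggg
Nr4a2: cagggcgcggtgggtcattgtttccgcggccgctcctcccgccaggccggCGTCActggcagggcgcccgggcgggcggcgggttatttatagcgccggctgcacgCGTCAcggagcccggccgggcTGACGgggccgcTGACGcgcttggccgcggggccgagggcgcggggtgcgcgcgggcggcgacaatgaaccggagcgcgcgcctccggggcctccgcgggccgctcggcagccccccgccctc
Nr4a3: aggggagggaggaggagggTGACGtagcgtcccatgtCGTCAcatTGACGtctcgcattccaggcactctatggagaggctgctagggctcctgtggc

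Each of the 3 genes had 4 half-sites, on either strand, within the 250 bases before its RefSeq start. For Nr4a3, 152 of those bases lie in an annotated GENCODE exon, and so does 1 of its 4 half-sites, which leaves 3 in the 98 bases shown. Of 32851 RefSeq windows of the same length, 17.8% held at least 1 half-site, 0.688% held at least 3 and 0.137%, or 45 windows, held at least 4. Half-sites were counted separately where they overlap in a full element. None of the 3 windows held the full element TGACGTCA, which 1.55% of windows held, nor the NBRE AAAGGTCA (1.34%) or the CArG box of serum response factor (1.47%). The site of EGR factors, GCGNGGGCG, was present 1 time each for Nr4a1 and Nr4a2 and 0 times for Nr4a3, against 4.70% of windows with at least 1. Of 21 other immediate early genes 15 had a window, 11 of these had at least 1 half-site, 2 had 3 (Dusp1 and Homer1, named after their counts were seen) and 0 had 4. These counts are per gene, by its window with the most half-sites, whereas the shares above are per window, so the 2 are unlike measures. A match of letters is a description of the sequence and does not show binding.

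All 3 Nr4a genes were lower in ketogenic brains. Nr4a1 was 1.75-fold lower, Nr4a3 1.69-fold lower and Nr4a2 1.26-fold lower, or 42.8%, 40.9% and 20.7% less RNA. Of 14895 genes tested across the whole table, 3.22% were lower by the same call, an adjusted p under 0.05 by edgeR's quasi-likelihood F test, and every ketogenic library lay below every control library in 6.51%. The 3 genes met both.

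Nr4a1, the receptor first described as induced by nerve growth factor, had 18.1, 15.2, 18.3 and 15.7 FPKM in ketogenic replicates 1 to 4, against 33.7, 30.3, 26.9 and 26.6 FPKM in control replicates 1 to 4. The groups did not overlap, and the highest ketogenic library lay 0.49 below the lowest control library in log2 CPM (counts scaled to library size). The means were 16.8 ± 1.61 FPKM in ketogenic and 29.4 ± 3.35 FPKM in control libraries (SD, n = 4 each). The log2 fold change was -0.81 ± 0.09 (SE, edgeR adjusted p = 0.0006), with a 95% interval of -0.99 to -0.62. By p-value it ranked second among the 480 genes that fell, and by size 22nd.

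Nr4a3, which is induced by the same signals and is the longest of the 3 RNAs, had 9.13, 8.14, 7.15 and 7.34 FPKM in ketogenic replicates 1 to 4. Control replicates 1 to 4 had 15.3, 13.8, 11.8 and 12.7 FPKM. Again no library of either group reached into the other, with a gap of 0.37 in log2 CPM. The means were 7.94 ± 0.90 FPKM in ketogenic and 13.4 ± 1.51 FPKM in control libraries (SD, n = 4 each), a log2 fold change of -0.76 ± 0.09 (SE, edgeR adjusted p = 0.000814) with a 95% interval of -0.94 to -0.57. It ranked 3rd by p-value and 25th by size among the genes that fell.

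Nr4a2, the receptor tied to dopamine neurons and also present in deep cortex and claustrum, had 18.2, 15.3, 17.3 and 15.9 FPKM in ketogenic replicates 1 to 4, against 23.0, 20.7, 19.97 and 20.3 FPKM in control replicates 1 to 4. The groups did not overlap here either, but the gap was narrower, at 0.13 in log2 CPM. The means were 16.7 ± 1.34 FPKM in ketogenic and 20.99 ± 1.38 FPKM in control libraries (SD, n = 4 each), with a log2 fold change of -0.34 ± 0.07 (SE, edgeR adjusted p = 0.0189) and a 95% interval of -0.49 to -0.18. It ranked 121st by p-value and 246th by size among the 480.

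**Figure D1:**
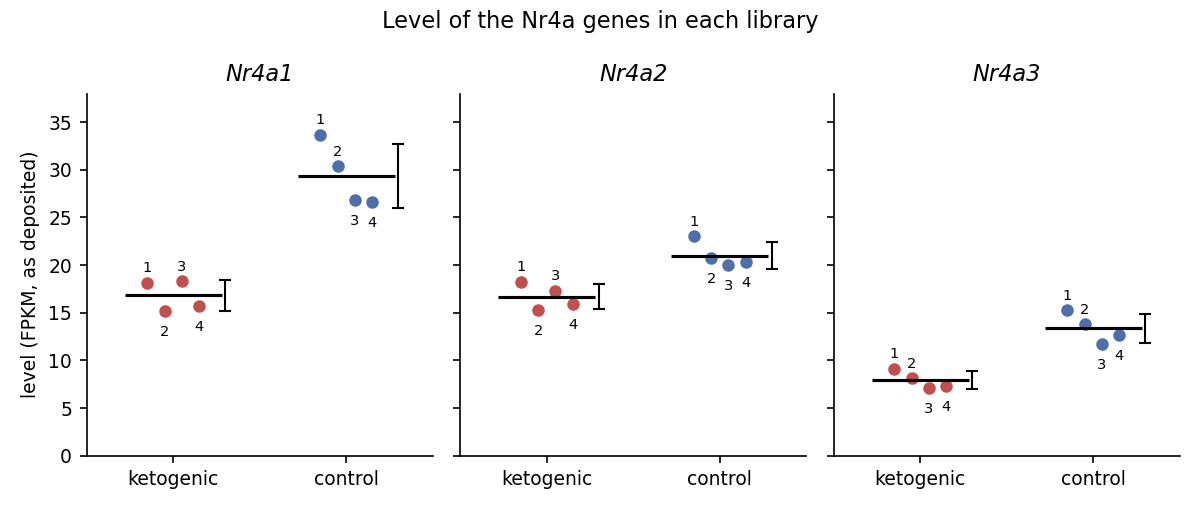
Level in FPKM, as deposited, of Nr4a1, Nr4a2 and Nr4a3 in the 4 ketogenic and 4 control libraries (points, labelled with the replicate number; line, mean; bar, SD). Every ketogenic library lies below every control library for each gene, with the narrowest gap for Nr4a2.

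The calls for Nr4a1 and Nr4a3 held with each library left out in turn, with adjusted p of up to 0.00463 for both. The Nr4a2 call did not: leaving out control replicate 1 gave a log2 fold change of -0.28 (edgeR adjusted p = 0.0712), leaving out control replicate 2 gave -0.35 (0.0506), and leaving out ketogenic replicate 2 gave -0.29 (0.0696). Without ketogenic replicate 3, the library apart on the first component, the log2 fold changes were -0.86, -0.36 and -0.72 for Nr4a1, Nr4a2 and Nr4a3, and all 3 passed.

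The 3 genes did not fall by the same amount. Within each library the log2 ratio of Nr4a1 to Nr4a2 was 0.39, 0.39, 0.48 and 0.38 in ketogenic replicates 1 to 4, against 0.95, 0.95, 0.83 and 0.79 in control replicates 1 to 4. The ratio is taken within a library, and the groups did not overlap. The mean was 0.41 ± 0.05 in ketogenic and 0.88 ± 0.08 in control libraries, a difference of -0.47 (exact two-sided permutation p = 0.0286, the smallest that 4 against 4 allows; adjusted over the 3 pairs, p = 0.0429). Nr4a1 was lower relative to Nr4a2 in 4 of 4 ketogenic libraries.

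The ratio of Nr4a3 to Nr4a2 behaved alike, at -0.33 ± 0.16 in ketogenic and 0.09 ± 0.08 in control libraries, a difference of -0.42 (exact permutation p = 0.0286, adjusted p = 0.0429). Its range was -0.53 to -0.16 in ketogenic libraries and -0.02 to 0.15 in control libraries. The ratio of Nr4a1 to Nr4a3 was 0.74 ± 0.20 in ketogenic and 0.79 ± 0.05 in control libraries, a difference of -0.05 that did not pass (exact permutation p = 0.686, adjusted p = 0.686). Here the ketogenic libraries spread from 0.56 to 1.01, around the control range of 0.72 to 0.85. A change in this ratio was therefore not detected, which does not show that both genes fell equally.

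**Figure D2:**
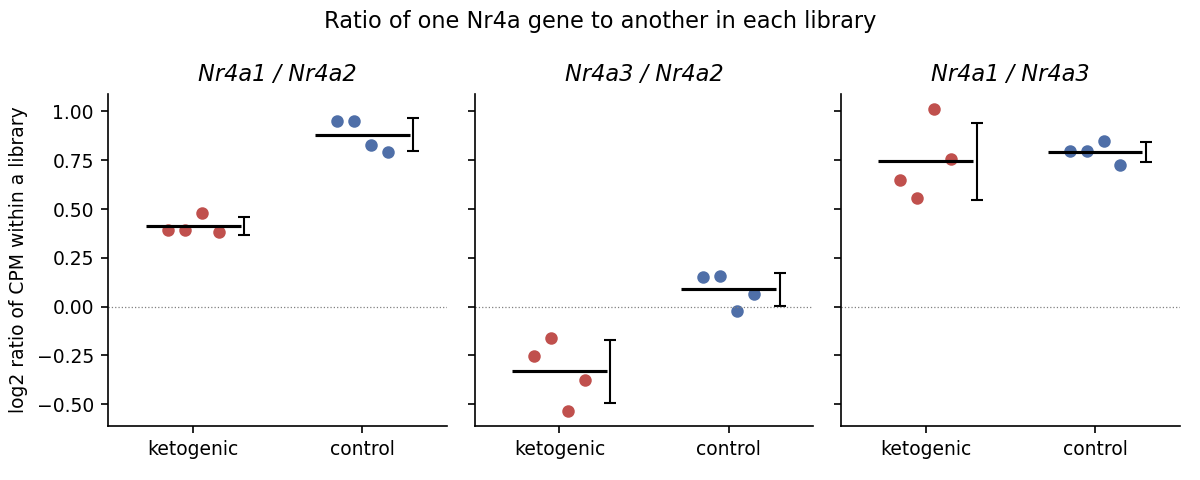
Log2 ratio of CPM between members within each library, ketogenic beside control (points, libraries; line, mean; bar, SD). Both ratios to Nr4a2 separate the diets, by -0.47 and -0.42 on average, and the ratio of Nr4a1 to Nr4a3 does not.

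Summed over the 3 genes, the family stood at 41.5 ± 3.28 FPKM in ketogenic and 63.7 ± 6.14 FPKM in control libraries (SD, n = 4 each), 1.54-fold lower in ketogenic brains (exact two-sided permutation p = 0.0286, the smallest possible). The sum ran from 38.6 to 45.5 FPKM in ketogenic and from 58.6 to 72.0 FPKM in control libraries. Nr4a2 made up 40.2 ± 0.56% of this sum in ketogenic and 33.0 ± 1.23% in control libraries. Nr4a1 made up 40.6 ± 1.53% in ketogenic and 46.0 ± 1.04% in control libraries, and Nr4a3 19.2 ± 1.89% in ketogenic and 20.97 ± 0.60% in control libraries.

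Per length, Nr4a1 was the most abundant member in control libraries, followed by Nr4a2 and Nr4a3, with no overlap between neighbours. In ketogenic libraries Nr4a1 and Nr4a2 overlapped, at 16.8 and 16.7 FPKM, and Nr4a3 stayed below both. That order rests on the length each value was divided by. The deposited tables imply 5123 bases for Nr4a1, 3879 for Nr4a2 and 6486 for Nr4a3, whereas merged GENCODE M21 exons give 3509, 4059 and 5987. With the GENCODE lengths, a choice made after seeing the data, Nr4a1 stood at 24.6 ± 2.35 and Nr4a2 at 15.9 ± 1.28 in FPKM units in ketogenic libraries, against 42.9 ± 4.89 and 20.1 ± 1.32 in control libraries. The shares of the sum were then 49.999 ± 1.65% for Nr4a1 and 32.5 ± 0.41% for Nr4a2 in ketogenic libraries, against 55.3 ± 1.01% and 26.0 ± 1.07% in control libraries, so the near-equal ketogenic shares rest on the deposited lengths. Fold changes within a gene do not depend on the length.

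Among all 48 nuclear receptor genes in the table, ordered by mean deposited FPKM, Nr4a1 was 8th in ketogenic and 3rd in control libraries, Nr4a2 9th in ketogenic and 6th in control libraries, and Nr4a3 15th in ketogenic and 10th in control libraries. The thyroid hormone receptor gene Thra was the most abundant in both. In ketogenic libraries Nr4a1 and Nr4a2 stood next to Esrra, a receptor that controls mitochondrial genes, at 17.1 ± 0.96 FPKM, which is within their spread. In control libraries the nearest receptors were Nr1d2, a clock repressor, at 24.0 ± 0.91 FPKM and Nr1h2, a sterol receptor, at 22.6 ± 1.02 FPKM. Nr1h2 lay within the range of Nr4a2, and both means lay below the lowest Nr4a1 library. These places rest on the deposited lengths: with its GENCODE length Nr4a1 stood at 24.6 in ketogenic libraries, above the deposited level of Esrra, and the other receptors were not recomputed.

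Few other nuclear receptors passed the test. Of 46 other receptors fixed by name, 45 were in the table and 34 passed the filter on low counts. Of these 34, 2 rose, 2 fell and 30 did not pass, against 3.30% of all genes higher and 3.22% lower, and their median log2 fold change was -0.06 against -0.0029 over all genes tested. Thra had 995 ± 38.6 CPM in ketogenic and 864 ± 8.44 CPM in control libraries, a log2 fold change of 0.20. Nr2f6, an orphan receptor of the COUP-TF group, had 22.8 ± 2.35 CPM in ketogenic and 17.3 ± 2.40 CPM in control libraries (log2 fold change 0.40). Rorb, an orphan receptor of cortical layer neurons, had 29.9 ± 1.89 CPM in ketogenic and 37.5 ± 3.31 CPM in control libraries (-0.33), and the clock repressor Nr1d1 had 139 ± 15.5 CPM in ketogenic and 166 ± 6.81 CPM in control libraries (-0.26). Thra and Nr1d1 overlap on opposite strands, and since the use of strand in counting is not given in the sources used here, their reads may be shared. Each of the 4 calls was lost without control replicate 1 or 2 (edgeR adjusted p of 0.0675 and 0.0749 for Thra, 0.119 and 0.105 for Nr2f6, 0.0903 and 0.0828 for Rorb, 0.0956 and 0.0979 for Nr1d1), and each also without at least 2 other libraries. None was higher or lower without control replicate 1 or without control replicate 2. Without ketogenic replicate 1 there were 0 higher and 1 lower, without ketogenic replicate 2 there were 1 higher and 0 lower, and without ketogenic replicate 4 also 1 higher and 0 lower. Without control replicate 3, 1 was lower, and without ketogenic replicate 3, 1 was higher. Over the fits with 1 library left out, 76 to 962 of all genes were lower and 70 to 938 higher.

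Most of the other immediate early genes fell, in a list chosen with earlier results of these data known. Of 21 fixed by name, with the Nr4a genes left out, 15 fell, 0 rose and 6 did not pass (edgeR; at an unadjusted p under 0.05 there were 16 lower and 1 higher, and with the DESeq2 Wald test 15 lower and 0 higher). Their median log2 fold change was -0.51, against -0.0029 over all genes. Of the 14895 genes tested, edgeR called 3.22% lower and 3.30% higher. At an unadjusted p under 0.05, 1864 of all genes were lower, and DESeq2 called 870 lower and 897 higher. Among the 6 that did not pass, Nptx2, Ier5, Homer1 and Bdnf had log2 fold changes of 0.20, 0.12, 0.04 and 0.03. Fos, a subunit of AP-1, was at 29.3, 33.2, 30.3 and 25.1 CPM in ketogenic replicates 1 to 4, against 67.2, 67.0, 53.5 and 55.7 CPM in control replicates 1 to 4. Its log2 fold change of -1.04 ± 0.09 (SE) was larger than that of any Nr4a gene. Egr1, a zinc-finger factor, had -0.83 ± 0.10, Fosb of the AP-1 family -0.65 ± 0.09 and Dusp1, a phosphatase of MAP kinases, -0.60 ± 0.08. Egr4 had -0.47 ± 0.08. The smallest changes that passed were Jun at -0.27 ± 0.07, Fosl2 at -0.28 ± 0.07 and Junb at -0.31 ± 0.09. With 1 library left out at a time, the Jun call was lost in 5 of 8 fits (edgeR adjusted p of up to 0.0992), the Fosl2 call in 4 (0.108) and the Junb call in 6 (0.152). Differences between these genes and the Nr4a genes were not tested.

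Genes induced by activity did not all pass the test. Arc, which removes glutamate receptors from synapses, had 164 ± 34.6 CPM in ketogenic and 271 ± 35.5 CPM in control libraries (log2 fold change -0.73 ± 0.12, edgeR adjusted p = 0.00596), and Npas4, a neuron-specific factor, had 19.9 ± 3.29 CPM in ketogenic and 33.7 ± 8.90 CPM in control libraries (-0.76 ± 0.16, adjusted p = 0.0178). The ketogenic and control values of Npas4 overlapped, and its call was lost without control replicate 1 or 2 (0.0712 and 0.0631). Bdnf, a neurotrophin, had 24.5 ± 2.55 CPM in ketogenic and 24.0 ± 0.93 CPM in control libraries (0.03 ± 0.08, adjusted p = 0.872). By size of change Nr4a1 and Nr4a3 stood among Egr1, Npas4 and Arc, and Nr4a2 stood between Egr4 and Gadd45b, which did not pass.

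**Figure D3:**
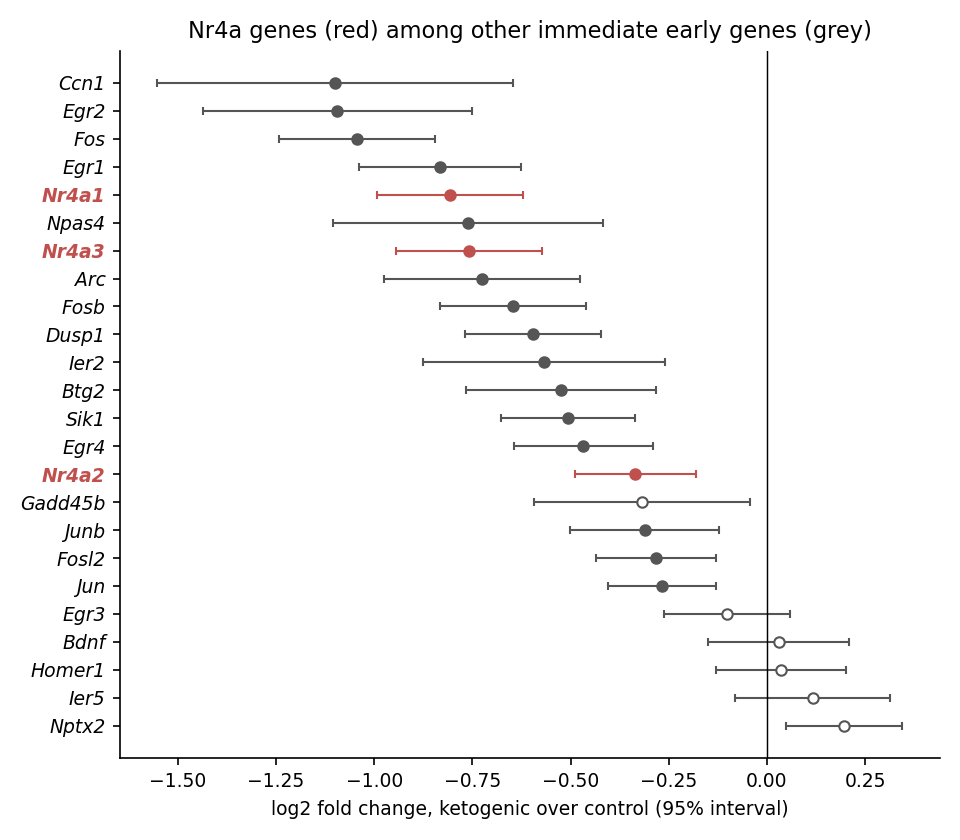
Log2 fold change, ketogenic over control, with its 95% interval, of the 3 Nr4a genes (red) and 21 other immediate early genes (grey); filled points passed at an adjusted p under 0.05, open points did not. Nr4a1 and Nr4a3 lie among Egr1, Npas4 and Arc, at -0.81 and -0.76, and Nr4a2 lies at -0.34 between Egr4 and Gadd45b.

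Likeness was also measured over the whole pattern of 8 libraries, as the root mean square difference of mean-centred log2 CPM among 13527 genes with a mean of at least 1 CPM. Nearest to Nr4a1 were Egr1 (0.095), Scel (0.124), Nr4a3 (0.128), Prrg1 (0.133) and Fosb (0.143), where the median gene lay at 0.45. Nearest to Nr4a3 were Egr1 (0.119), Nr4a1 (0.128), Dcx (0.128), which marks young neurons, Lrif1 (0.130) and Fosb (0.134). Nearest to Nr4a2 were Rab11fip2 (0.041), an adaptor of recycling endosomes, Ptchd4 (0.050), Fmn2 (0.060), which nucleates actin filaments, Thap2 (0.060) and R3hdm1 (0.060), none of them in the immediate early list. The median gene lay at 0.43 from Nr4a3 and at only 0.24 from Nr4a2, so distances are not comparable between members. The control library with the highest Nr4a level was replicate 1 for all 3 genes. Among ketogenic libraries Nr4a1 and Nr4a2 were higher in replicates 1 and 3 than in 2 and 4, whereas Nr4a3 was higher in 1 and 2 than in 3 and 4. The root mean square difference also counts the size of the diet change. With Pearson correlation in its place, 0 of the 5 genes were shared for Nr4a1, 3 for Nr4a2 and 0 for Nr4a3, so the names for Nr4a1 and Nr4a3 depend on the measure. Over the 8 libraries Nr4a1 correlated at 0.967 with Nr4a2 and 0.955 with Nr4a3, and Nr4a2 at 0.911 with Nr4a3. For deviations from each diet's mean these correlations were 0.942, 0.623 and 0.637.

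Genes that act upstream of Nr4a transcription were measured as 27 members, namely CREB and its coactivators, the MEF2 factors, serum response factor, class IIa histone deacetylases and the kinases that reach them. Of these 1 rose (3.70%, against 3.30% of all genes), 2 fell (7.41%, against 3.22%) and 24 did not pass, with a median log2 fold change of -0.04. The share that rose was near that of all genes, and the share that fell rests on 2 genes. At an unadjusted edgeR p under 0.05, 6 were lower and 4 higher, where 1864 of the 14895 genes tested were lower. In 4 members every ketogenic library lay below every control library, against 6.51% of all genes. Creb1, the CREB gene itself, had 49.8 ± 4.34 CPM in ketogenic and 62.8 ± 1.36 CPM in control libraries, a log2 fold change of -0.33 ± 0.07 (SE, edgeR adjusted p = 0.0137), and Hdac9, a deacetylase that represses MEF2 targets, had 45.9 ± 3.88 CPM in ketogenic and 59.5 ± 3.55 CPM in control libraries (-0.38 ± 0.07, adjusted p = 0.0107). The groups did not overlap for either gene, and both calls held without each library in turn. Of 22 alternative fits, each of the 2 genes passed in 18. Creb1 did not pass with the GC and length trend removed (edgeR adjusted p = 0.0762). Hdac9 did not pass with limma on genes of mean FPKM of at least 0.1 (adjusted p = 0.0609). Neither passed with limma on unfiltered FPKM (adjusted p of 0.0556 to 0.089). Without ketogenic replicates 3 and 4 together, edgeR gave adjusted p of 0.0869 for Creb1 and 0.101 for Hdac9. The kinase gene Rps6ka2 had 78.6 ± 4.34 CPM in ketogenic and 64.1 ± 3.16 CPM in control libraries (0.29 ± 0.06, adjusted p = 0.0157). It did not pass without control replicate 1 (0.0592) and without ketogenic replicate 2 (0.0602). The list had 4 members lower without ketogenic replicate 3, 2 higher without control replicate 4 and 0 higher without control replicate 1 or ketogenic replicate 2. Over all genes, fits with 1 library left out called 76 to 962 lower and 70 to 938 higher.

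Partners and co-regulators did not pass. Of 14 genes, among them the 3 retinoid X receptors, the CoREST scaffold Rcor1 and the demethylase Kdm1a, 0 rose and 0 fell in edgeR, with 2 higher and 0 lower at an unadjusted p under 0.05 and 1 higher with the DESeq2 Wald test. Without control replicate 4, 1 was higher, where fits with 1 library left out called 70 to 938 of all genes higher. Over all 14895 genes tested edgeR called 3.30% higher and 3.22% lower, so 0 of 14 was near those shares. At an unadjusted p under 0.05, 1864 genes were lower, and DESeq2 called 870 lower and 897 higher. Rxra and Rxrb had log2 fold changes of 0.18 ± 0.07 and 0.20 ± 0.06 (SE, adjusted p = 0.119 and 0.0696). Rxrg, Rcor1 and Kdm1a had 0.07 ± 0.14, -0.09 ± 0.09 and -0.0088 ± 0.06.

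Few reported targets passed the test. Of 12 genes of dopamine neurons, most of them controlled by Nr4a2 in the midbrain, 10 were tested and 0 passed in either direction (edgeR; 1 lower and 0 higher at an unadjusted p under 0.05, and 0 with DESeq2). With 3.22% of all 14895 genes lower and 3.30% higher by edgeR, 0 of 10 was near those shares. At an unadjusted p under 0.05, 1864 of all genes were lower, and DESeq2 called 870 lower and 897 higher. Th, which makes the dopamine precursor, had 3.31, 13.3, 2.69 and 10.1 CPM in ketogenic replicates 1 to 4, against 6.53, 8.46, 5.40 and 5.30 CPM in control replicates 1 to 4. Slc6a3, the dopamine transporter, had 2.72, 14.9, 0.35 and 17.1 CPM in ketogenic and 7.21, 12.8, 4.31 and 3.35 CPM in control replicates 1 to 4. The ketogenic libraries with low Th and Slc6a3, replicates 1 and 3, were those with the higher Nr4a2. Control libraries went the other way: replicates 1 and 2 had the higher Th and Slc6a3 and also the higher Nr4a2. A relation between these genes was not tested. The log2 fold change of Slc6a3 was 0.34 with an SE of 0.64, and that of Th 0.20 with an SE of 0.37.

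Of 13 chaperone genes of the endoplasmic reticulum, a group reported as Nr4a targets in mouse hippocampus, 1 fell (7.69%, against 3.22% of all genes), 0 rose and 12 did not pass (edgeR; 2 lower and 1 higher at an unadjusted p under 0.05, 1 lower and 0 higher with DESeq2). The gene that fell was Dnajb9, at 65.7 ± 2.40 CPM in ketogenic and 76.9 ± 3.91 CPM in control libraries (log2 fold change -0.23 ± 0.06, adjusted p = 0.0339). It passed without control replicate 4 and without ketogenic replicate 3, and with each other library left out it did not, with adjusted p of 0.06 to 0.0956. Control replicate 4 stood apart for these genes: Hspa5, the main chaperone of that compartment, was at 410 CPM there and at 225 to 247 CPM in the other control libraries, against 270 to 326 CPM in ketogenic libraries. Without control replicate 4, 6 members were higher. Over the fits with 1 library left out, 70 to 938 of all genes were higher, so the 3.30% of the full fit does not apply to this count. Of 10 metabolic genes reported as targets in liver or muscle of rodents, 8 were tested and 0 passed, also at an unadjusted p under 0.05 and with DESeq2. With 3.22% of all genes lower and 3.30% higher by edgeR, 0 of 8 was near those shares. At an unadjusted p under 0.05, 1864 of the 14895 genes tested were lower, and DESeq2 called 870 lower and 897 higher.

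**Figure D4:**
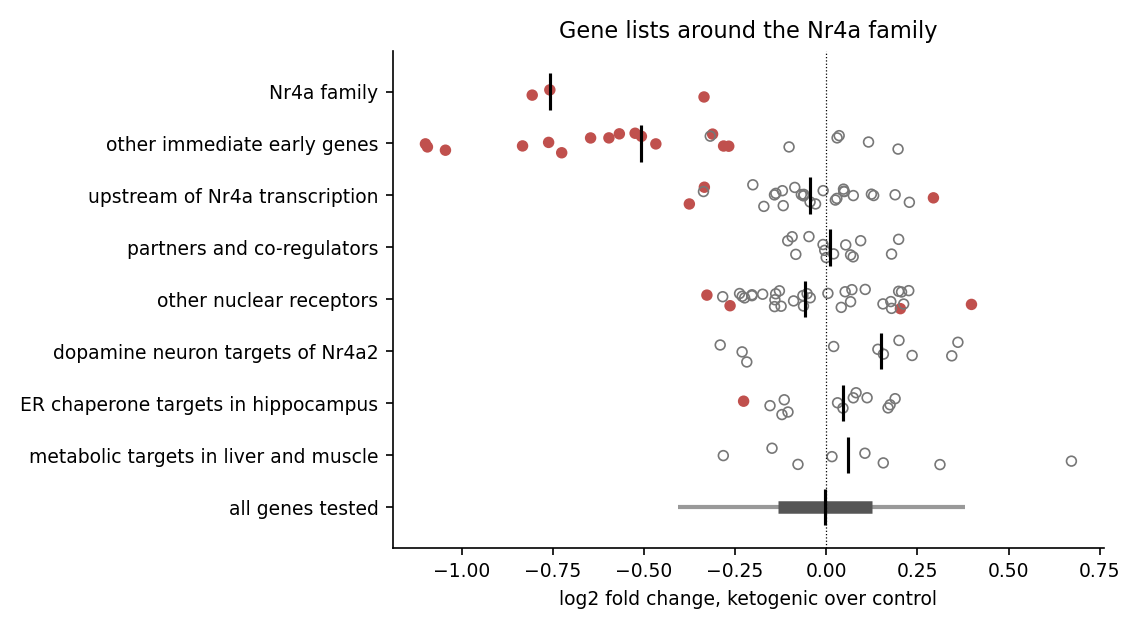
Log2 fold change, ketogenic over control, of each tested gene in 8 lists (points, red where the adjusted p was under 0.05; black line, list median; heights within a row are spread for sight only). The lowest row gives all genes tested, as the 5th to 95th percentile (thin bar), the quartiles (thick bar) and the median. The Nr4a genes and other immediate early genes lie to the left, with medians of -0.76 and -0.51, and the other lists lie around 0.

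Neuron markers did not pass the test. Over 10 neuron markers, mean log2 CPM was 9.47 ± 0.08 in ketogenic and 9.50 ± 0.03 in control libraries (exact permutation p = 0.457, adjusted over 13 marker lists p = 0.743), and 0 of 10 passed in edgeR, with 1 higher and 1 lower at an unadjusted p under 0.05. With 3.22% of all 14895 genes lower and 3.30% higher by edgeR, 0 of 10 was near those shares. At an unadjusted p under 0.05, 1864 of all genes were lower. The 7 markers of deep cortex and claustrum, where Nr4a2 is abundant, had 4.87 ± 0.05 in ketogenic and 4.89 ± 0.03 in control libraries (exact p = 0.4, adjusted p = 0.743).

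Single markers of other cell types passed, while none of the 13 marker lists passed as a mean after adjustment. With 4 against 4 libraries the exact permutation p cannot go below 0.0286, where the astrocyte and red blood cell lists stood. At that floor a list passes adjustment over 13 lists only if most other lists reach it too. The lack of a pass therefore does not show that no list differed. Of 7 astrocyte markers 4 fell, against 3.22% of all genes, and 3 did not pass, and their summed level ran from 3638 to 4204 CPM in ketogenic and from 3848 to 4623 CPM in control libraries. The mean log2 CPM of the list was 7.90 ± 0.05 in ketogenic and 8.13 ± 0.09 in control libraries (exact permutation p = 0.0286, adjusted p = 0.186). Of 5 red blood cell markers 4 rose, against 3.30% of all genes, with a summed level of 69.4 to 114 CPM in ketogenic and 15.3 to 52.4 CPM in control libraries (exact permutation p = 0.0286, adjusted p = 0.186); hemoglobin genes have near-identical copies among which reads could be split. Of 7 markers of cortical excitatory neurons 2 fell, again against 3.22%, with a list mean of 5.73 ± 0.22 in ketogenic and 5.92 ± 0.11 in control libraries (exact p = 0.229, adjusted p = 0.669). No marker of these 3 lists was at 0 in all libraries. Their part in the Nr4a result was not tested.

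**Figure D5:**
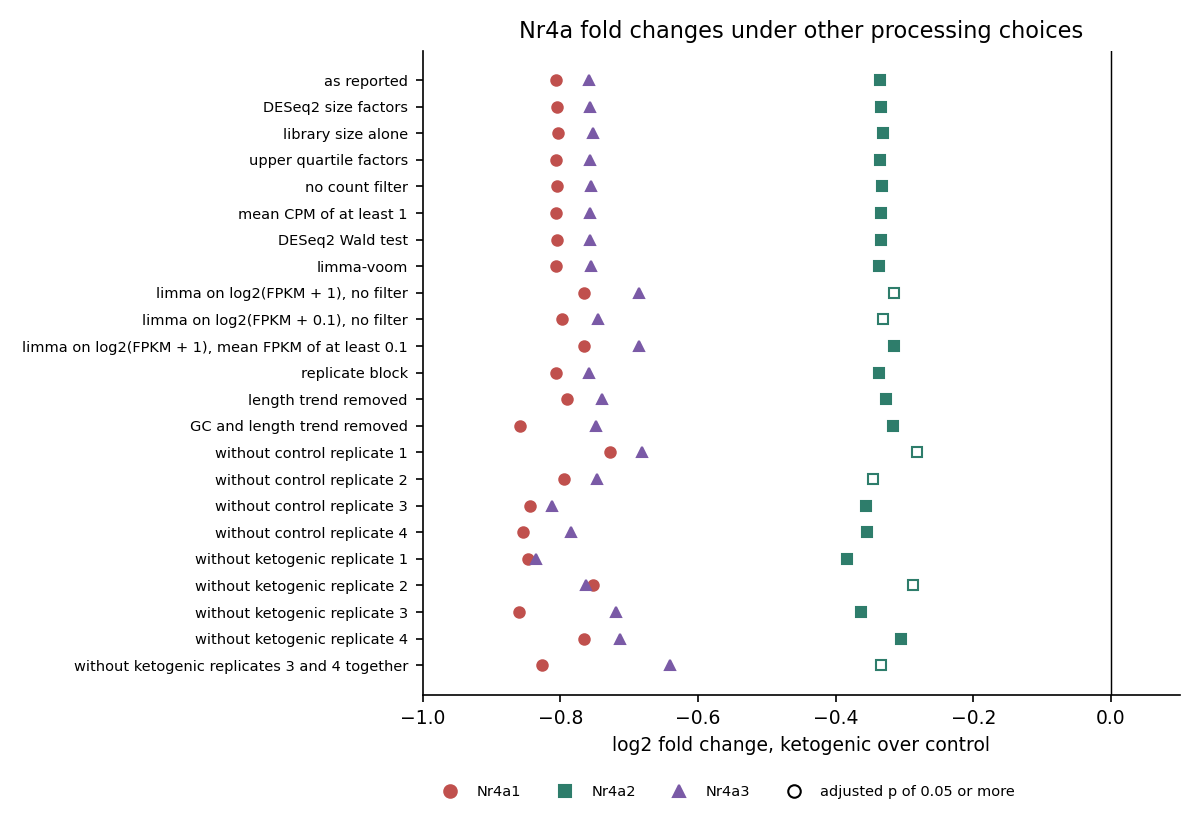
Log2 fold change, ketogenic over control, of the 3 Nr4a genes as reported and under 22 other processing choices (open symbols, adjusted p of 0.05 or more). Nr4a1 and Nr4a3 stay between -0.86 and -0.64 and pass throughout, and Nr4a2 stays between -0.38 and -0.28 and misses the threshold under 6 of the 22.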

How the data were processed

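Per the labels' protocols, RNA was column-purified and messenger RNA libraries were made with a SMARTer kit. The authors deposited raw counts per gene symbol and FPKM values for the same 8 libraries; the submitters' processing notes name the builds GRCm38 and mm10. Which aligner, counter, strand setting and annotation were used was not given in the sources used here. Deposited FPKM equalled the count divided by a fixed gene length and the column total.

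Ketogenic was compared with control by edgeR 4.0.16 (R 4.3.3) on the deposited counts, with TMM factors, the default filter (14895 of 17983 genes kept), the quasi-likelihood F test and Benjamini-Hochberg adjustment over all tested genes; an adjusted p under 0.05 passed. Each SE is the size of the log2 fold change over the root of F. CPM is scaled by TMM. Log2 CPM used a prior count of 2. Single values were compared by exact two-sided permutation over 70 assignments (SciPy 1.17.1). Limma 3.58.1 and DESeq2 1.42.0 were alternatives. The edgeR step was tested on simulated counts.

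Members and lists were chosen with earlier results of these data known. Genes named are the members, 6 genes fixed by name (Fos, Egr1, Arc, Npas4, Bdnf, Dusp1), list members that passed (at most 8, otherwise the 4 with the smallest p) and the 5 genes most like each member; others were chosen after their values were seen. Deviations of same-numbered replicates correlated only weakly, at 0.022 to 0.076, against -0.090 to 0.085 for other pairs, so they were not paired. A fit with a replicate block is given below.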

Additional observations from a re-analysis of the deposited data

Results flagged for a closer look

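In 40 sets of 4 libraries (the members' CPM, their sum, their ratios and the 13 marker lists, in each diet), 4 had a library far from the other 3 by Dixon's criterion. Chance flags about 1 in 20. Nr4a2 in control replicate 1 was at 90.5 CPM, with the other control libraries at 78.0 to 80.0 CPM. The log2 ratio of Nr4a1 to Nr4a2 in ketogenic replicate 3 was 0.48, with the other ketogenic libraries at 0.38 to 0.39, and still below every control library. The mean log2 CPM of the dentate gyrus markers in ketogenic replicate 4 was 3.24, with the others at 2.84 to 2.89, and that of the deep cortex and claustrum markers in control replicate 4 was 4.93, with the others at 4.88.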

How the results depend on the processing

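Direction was the same for all 3 genes under 22 alternatives. Nr4a1 and Nr4a3 passed under all 22, with log2 fold changes of -0.86 to -0.73 and -0.84 to -0.64, and Nr4a2 under 16. Leaving out each library in turn gave -0.86 to -0.73 for Nr4a1, -0.84 to -0.68 for Nr4a3 and -0.38 to -0.28 for Nr4a2. The differences in change ran from -0.50 to -0.44 (Nr4a1 minus Nr4a2) and -0.48 to -0.35 (Nr4a3 minus Nr4a2), and the log2 ratio of the summed FPKM from -0.67 to -0.56. With 7 libraries the exact test cannot go below p = 0.0571, so these missed the threshold by construction. Nr4a1 minus Nr4a3 ran from -0.14 to 0.01, turning to 0.014 without ketogenic replicate 2. Over these settings 76 to 962 genes were lower and 70 to 938 higher. Other receptors had 0 to 3 lower and 0 to 3 higher, upstream genes 2 to 4 lower and 0 to 2 higher, partners 0 to 1 higher, chaperones 0 to 1 lower and 0 to 6 higher, and other immediate early genes 10 to 14 lower and 0 to 1 higher.

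With limma on unfiltered log2(FPKM + 1), Nr4a2 was at -0.32 (adjusted p = 0.0666), 29 genes were lower and 35 higher, and 5 other immediate early genes were lower. With log2(FPKM + 0.1) these were -0.33 (0.0573), 37, 51 and 6. Without ketogenic replicates 3 and 4 together they were -0.33 (0.0932), 51, 39 and 7. Under each of these 3, 0 other receptors, 0 upstream genes and 0 chaperones passed. With limma on genes of mean FPKM of at least 0.1, 212 genes were lower and 307 higher, with 0 other receptors lower, 1 higher and 1 upstream gene lower. The DESeq2 Wald test called 870 lower and 897 higher, with 2 upstream genes and 1 partner higher. Removal of the GC and length trend, added after seeing the data, gave 230 lower and 205 higher, 1 other receptor lower and 0 higher, 1 upstream gene lower and 0 chaperones lower. Removal of the length trend alone gave 2 upstream genes higher. With the replicate block, 782 genes were lower, 746 higher and 1 partner higher, and the Nr4a log2 fold changes were -0.81, -0.34 and -0.76. The block changed no call on the 3 genes. Same-numbered libraries had correlated deviations of 0.022 to 0.076, so the numbers were not read as pairs. Apart from fewer libraries or other genes tested, the cause of these shifts was not tested.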

Other observations

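Creld2, a chaperone induced by stress of the endoplasmic reticulum, was at 16.7 CPM in control replicate 4 and at 8.76 to 9.01 CPM in the other control libraries, against 10.5 to 12.1 CPM in ketogenic libraries. This gene was chosen after its values were seen. In the same library Nr4a1, at 135 CPM, was the lowest of the control group, Nr4a2 was at 78.0 CPM and Nr4a3 at 81.6 CPM.

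The summed CPM of the 5 tested markers of midbrain dopamine neurons ran from 13.9 to 56.8 in ketogenic and from 22.4 to 43.8 in control libraries. The summed CPM of the 4 tested cerebellar markers ran from 17.8 to 39.2 in ketogenic and from 35.4 to 46.9 in control libraries.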
